A study of Mus musculus with 8 samples.

Results

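The 8 genes of cell-to-cell contact described here were followed through both rounds of ML-792 in R1 mouse embryonic stem cells: the claudin genes Cldn10, Cldn3, Cldn4, Cldn6, Cldn7 and Cldn9, the E-cadherin gene Cdh1 and the adhesion glycoprotein gene Epcam. They were 8 of the 36920 genes in the table, and all 8 were among the 19173 genes with enough reads to be tested. Cldn10 was picked because its level under ML-792 was far above that in control cells, and the others were set beside it by family and function. Its values across the exposures are therefore a description with no test.

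R1 is an established line kept here in serum with LIF, the cytokine that holds mouse stem cells undifferentiated, and ML-792 inhibits the SUMO E1 enzyme, which starts the attachment of SUMO to proteins. RNA was sequenced in 2 libraries per group. The D3 libraries were taken after a first 48 h in ML-792 at a dose labelled 2.5 mM, and the D1 libraries are their controls, taken before it. The D10 libraries were taken after a second 48 h in ML-792 at the same labelled dose, and the D8 libraries are their controls. D10 and D8 both come from cells that had the first exposure, which ended at D3. No untreated library at D3 or D10 is used here, so ML-792 and 48 h of further culture cannot be told apart. Both D1 libraries were grouped by their titles, although the time tag of D1 replicate 2 reads D0.

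Claudins are membrane proteins that form the strands of the tight junction, where some seal the space between cells and others make pores for ions. E-cadherin binds its like on the next cell, links to the actin cytoskeleton through catenins and holds embryonic stem cell colonies together. Epcam is a surface glycoprotein of stem and epithelial cells that is known to associate with claudin 7.

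On mm10 (GRCm38) with the GENCODE M21 annotation, Cldn10 (ENSMUSG00000022132) covers chr14:118787908-118875489 on the plus strand. Cldn3 (ENSMUSG00000070473, chr5:134986214-134987472, plus strand) and Cldn4 (ENSMUSG00000047501, chr5:134945119-134946934, minus strand) lie 39280 bp apart. Cldn6 (ENSMUSG00000023906, chr17:23679249-23682446, plus strand) and Cldn9 (ENSMUSG00000066720, chr17:23682584-23684026, minus strand) point toward each other with 138 bp between their ends. Cldn7 (ENSMUSG00000018569) is at chr11:69964779-69967885, Cdh1 (ENSMUSG00000000303) at chr8:106603351-106670246 and Epcam (ENSMUSG00000045394) at chr17:87635979-87651129, each on the plus strand. The antisense gene Wbscr25 overlaps the end of Cldn3 and had 6 reads in all libraries together. No other annotated gene overlaps one of the 8.

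The libraries held 21040992 to 40835518 reads in genes. Levels are given in CPM, the reads of a gene scaled to library size, with TMM factors that correct for differences in library composition. D8 replicate 2 stood apart: over 12690 protein-coding genes, the difference of its log2 level from the average library followed transcript GC content (Spearman rho 0.605). The other controls had values of -0.117 to 0.109. D3 replicates 1 and 2 had -0.353 and -0.326, and D10 replicates 1 and 2 had -0.387 and 0.027, so the trend also ran in part with treatment. Transcript GC was 47% for Cldn10, 52.2% for Cdh1 and 55.1% to 62.7% for the rest of the 8 genes. All 10 pluripotency markers had reads in every library, and their summed level was 3530 to 4670 CPM in the ML-792 libraries and 6210 to 7000 CPM in the controls. Of the 10, 2 passed at D3 against D1 and 7 at D10 against D8, all lower, beside 5.10% and 7.65% of all genes lower. Dppa5a averaged 462 CPM at D3 and 1290 CPM at D1, and 442 CPM at D10 and 1630 CPM at D8. Sox2 was not lower, with 349 CPM at D3 and 325 CPM at D1, and 376 CPM at D10 and 375 CPM at D8. All 8 markers of 2-cell-like cells were called higher at D3 than at D1 and at D10 than at D8. Their summed level was 506 to 2320 CPM with ML-792 and 6.41 to 80.7 CPM in the controls. The summed level of 6 neural ectoderm markers was 58.2 and 57.1 CPM at D3, against 37.7 and 46.2 CPM at D1. It was 68 and 75.3 CPM at D10, against 40.4 and 51.8 CPM at D8, without overlap in either exposure. Its largest part was Nes, with means of 41.2 CPM at D3 and 21.5 CPM at D1, and 54.7 CPM at D10 and 30.4 CPM at D8. Sox1 went the other way, with 8.87 CPM at D3 and 14.9 CPM at D1, and 8.32 CPM at D10 and 12 CPM at D8. Of the 3 neural markers tested, 0 passed in either exposure, beside 13.0% and 16.9% of all genes. The fibroblast, mesoderm and trophoblast sums lay between 5.92 and 65.6 CPM. The part of any such change in cell state in the values below was not tested. In bulk RNA, fewer cells that express a gene and less RNA per cell cannot be told apart.

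Cldn10 encodes a claudin known for making ion-selective channels between cells, with variants that begin at different first exons. RefSeq on GRCm38.p6 holds 2 start sites for it, 67079 bp apart. The windows from 250 bases before to 50 bases after each start are shown because they are the annotated starts of a gene close to silent in the controls. Window 1 is chr14:118787621-118787920 and window 2 chr14:118854700-118854999, both on the plus strand. The GC content of the windows is 36% and 72%, in that order. Capitals, in these and the later windows, mark the hexamer CAGGTG or its complement CACCTG, and neither Cldn10 window holds one.
Cldn10 window 1: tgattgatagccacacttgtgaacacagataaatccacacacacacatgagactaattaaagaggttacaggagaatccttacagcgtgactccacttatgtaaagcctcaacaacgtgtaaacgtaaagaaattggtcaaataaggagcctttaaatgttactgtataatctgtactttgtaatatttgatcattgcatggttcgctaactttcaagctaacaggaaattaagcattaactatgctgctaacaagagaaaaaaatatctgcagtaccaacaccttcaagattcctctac
Cldn10 window 2: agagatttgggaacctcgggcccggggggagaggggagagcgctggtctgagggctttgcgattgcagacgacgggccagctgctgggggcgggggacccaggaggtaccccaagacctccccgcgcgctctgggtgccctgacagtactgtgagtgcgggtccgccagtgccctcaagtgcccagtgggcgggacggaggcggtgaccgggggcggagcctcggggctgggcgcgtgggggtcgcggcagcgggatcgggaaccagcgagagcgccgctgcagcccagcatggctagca

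At D3, Cldn10 had 52 and 137 reads in replicates 1 and 2, or 2.19 and 4.77 CPM, against 0 and 3 reads, or 0 and 0.0932 CPM, at D1. The 0 reads of D1 replicate 1 allow a level of up to 0.143 CPM (3 reads, counting error only). Cldn10 was close to silent in both D1 libraries and plainly present in both D3 libraries. At D10 it had 210 and 482 reads, or 8.51 and 11.5 CPM, against 1 and 3 reads, or 0.0327 and 0.0965 CPM, at D8. The D8 libraries were thus as low as those of D1, although their cells had been through the first exposure. Pooled over the libraries of a group, the level was 63.8 times higher at D3 than at D1, with an exact 95% interval of 21.5 to 312. It was 160 times higher at D10 than at D8, with an interval of 62.1 to 588. Both intervals cover counting error only, and they rest on 3 and 4 control reads. The fitted log2 fold changes were 5.87 ± 0.74 at the first exposure and 7.18 ± 0.69 at the second (SE).

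Comparisons within a treatment were left to test for Cldn10, although their libraries also entered the exposures that chose it. It averaged 9.98 ± 2.08 CPM at D10 and 3.48 ± 1.83 CPM at D3 (SD, n = 2 each), with no overlap between the groups. That log2 difference of 1.51 ± 0.45 did not pass in edgeR's quasi-likelihood test (Benjamini-Hochberg adjusted p = 0.71), but passed when no low-count filter was used (1.54, adjusted p = 0.0019). D8 and D1 differed by 0.21 ± 1.23 (adjusted p = 0.96), a value that rests on 7 reads in all. The counts are per gene, so they do not say which start site was used.

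**Figure D1:**
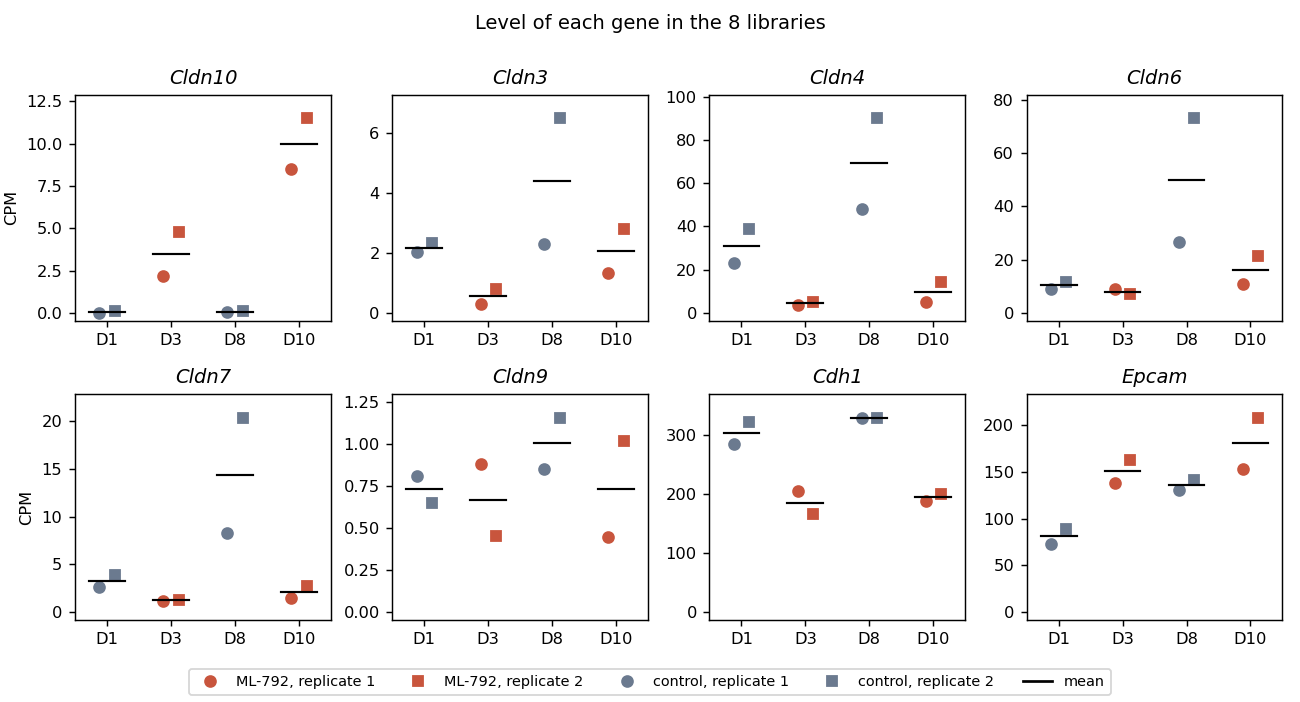
CPM of the 8 genes in each library, by day; circles are replicate 1, squares replicate 2, red ML-792, grey control, and the bar is the mean of 2. Cldn10 is near 0 in the 4 control libraries, Cldn4, Cldn7 and Cdh1 are lower in the ML-792 libraries than in the controls before them, and Cldn6 and Cldn7 spread most at D8.

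The first comparison, D3 against D1, asked which of these genes differed after 48 h in ML-792. Cldn4 and Cdh1 fell and Epcam rose. These were 3 of the 7 genes tested, beside 13.0% of all 19173 genes (7.92% higher and 5.10% lower), and the median log2 fold change of the 7 was -0.71, against 0 for all genes. No p-value was computed for the 7 as a set.

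Cldn4 encodes a claudin that tightens the junction against ions. It stood at 3.75 and 5.19 CPM at D3, against 23.1 and 38.6 CPM at D1. Both D3 libraries were far under both D1 libraries, and the log2 fold change was -2.79 ± 0.51 (adjusted p = 0.011). Cdh1 had 205 and 165 CPM at D3, against 285 and 321 CPM at D1. The groups did not overlap, and Cdh1 fell by 0.71 ± 0.14 on the log2 scale (adjusted p = 0.015). Epcam had 138 and 163 CPM at D3, against 73.1 and 88.5 CPM at D1. Each D3 library lay above each D1 library, a log2 fold change of 0.90 ± 0.18 (adjusted p = 0.016).

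Cldn3, a barrier-forming claudin, had 0.295 and 0.801 CPM at D3, against 2.01 and 2.33 CPM at D1. The groups did not overlap, but the log2 fold change of -1.95 ± 0.65 did not pass (adjusted p = 0.085). Cldn7, the claudin known to bind Epcam, had 1.18 and 1.29 CPM at D3, against 2.58 and 3.85 CPM at D1 (-1.39 ± 0.50, adjusted p = 0.11). Its groups did not overlap either. With the replicate number as a block, both passed: Cldn3 at -2.06 (adjusted p = 0.0064) and Cldn7 at -1.36 (adjusted p = 0.014). This made 5 called of 7, beside 4187 of all 19173 genes. Cldn6, a claudin of early embryonic epithelia, had 8.92 and 7.14 CPM at D3, against 9.04 and 11.7 CPM at D1 (-0.37 ± 0.47, adjusted p = 0.66). Cldn9, known for its role in the inner ear, had 0.884 and 0.453 CPM at D3, against 0.813 and 0.652 CPM at D1 (-0.14 ± 0.53, adjusted p = 0.9). The Cldn9 groups overlapped, and those of Cldn6 were separated by little.

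The 3 calls at D3 rested on few libraries. Cldn4 missed the threshold without D1 replicate 2 (-2.36, adjusted p = 0.081), D3 replicate 1 (-2.59, 0.095) or D3 replicate 2 (-3.04, 0.053). Cdh1 missed it without D1 replicate 1 (-0.81, adjusted p = 0.057), D1 replicate 2 (-0.62, 0.12) or D3 replicate 2 (-0.56, 0.12). Epcam missed it without D1 replicate 1 (0.75, adjusted p = 0.11), D1 replicate 2 (1.04, 0.071), D3 replicate 1 (1.0, 0.058) or D3 replicate 2 (0.77, 0.1). In the other direction, Cldn3 and Cldn7 passed without D8 replicate 1 (adjusted p = 0.038 and 0.04) or D8 replicate 2 (0.038 and 0.042), libraries that enter this comparison only through the shared estimate of the spread. Over those 8 fits the number of the 7 genes called varied, and so did the number of all genes called.

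The second exposure was read from D10 against D8. Cldn4, Cldn7, Cldn6 and Cdh1 fell, 4 of the 7 genes tested, beside 16.9% of all genes called (9.27% higher and 7.65% lower). The median log2 fold change of the 7 was -1.06, against 0.03 for all genes.

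Cldn4 had 5.07 and 14.4 CPM at D10, against 48.3 and 90 CPM at D8. The D10 libraries differed more from each other than those of D3 had, yet both were far below D8, with a log2 fold change of -2.81 ± 0.50 (adjusted p = 0.0079). Cldn7 had 1.42 and 2.73 CPM at D10, against 8.31 and 20.4 CPM at D8. Its groups were also well apart, and it fell by 2.76 ± 0.48 (adjusted p = 0.0072). Cldn4 and Cldn7 passed in each of the 16 alternative settings tried for this comparison, with adjusted p-values up to 0.027 and 0.042. Cdh1 had 188 and 200 CPM at D10, against 329 and 329 CPM at D8. These groups were the tightest of the 8 genes, and the change of -0.76 ± 0.14 (adjusted p = 0.0098) was lost in 1 setting, without D10 replicate 1 (-0.72, adjusted p = 0.065).

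Cldn6 had 10.7 and 21.5 CPM at D10, against 26.7 and 73 CPM at D8. The groups did not overlap, but the D8 libraries stood far from each other, and the call (-1.62 ± 0.46, adjusted p = 0.044) depended on D8 replicate 2. Without that library the change was -0.76 (adjusted p = 0.24), and without D10 replicate 1 it was -1.22 (0.21). The Cldn6 call was also lost without any 1 of the 4 D1 and D3 libraries (adjusted p 0.063 to 0.071) and with the stricter low-count filter (0.051) or with the block and without D8 replicate 2 (0.081). It held in 8 of the 16 settings.

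Epcam had 153 and 208 CPM at D10, against 130 and 141 CPM at D8. Its libraries did not overlap, and the change of 0.41 ± 0.18 did not pass (adjusted p = 0.16). It passed with the replicate block (0.40, adjusted p = 0.031) and, at 0.71, with offsets for GC content and length (adjusted p = 0.0085). Cldn3 had 1.34 and 2.8 CPM at D10, against 2.29 and 6.47 CPM at D8 (-1.06 ± 0.56, adjusted p = 0.24), and here the groups overlapped. With the block Cldn3 passed (-1.02, adjusted p = 0.044), whereas without D8 replicate 2 its change was -0.15 (adjusted p = 0.9). Cldn9 had 0.446 and 1.02 CPM at D10, against 0.851 and 1.16 CPM at D8, and these too overlapped (-0.40 ± 0.49, adjusted p = 0.61).

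**Figure D2:**
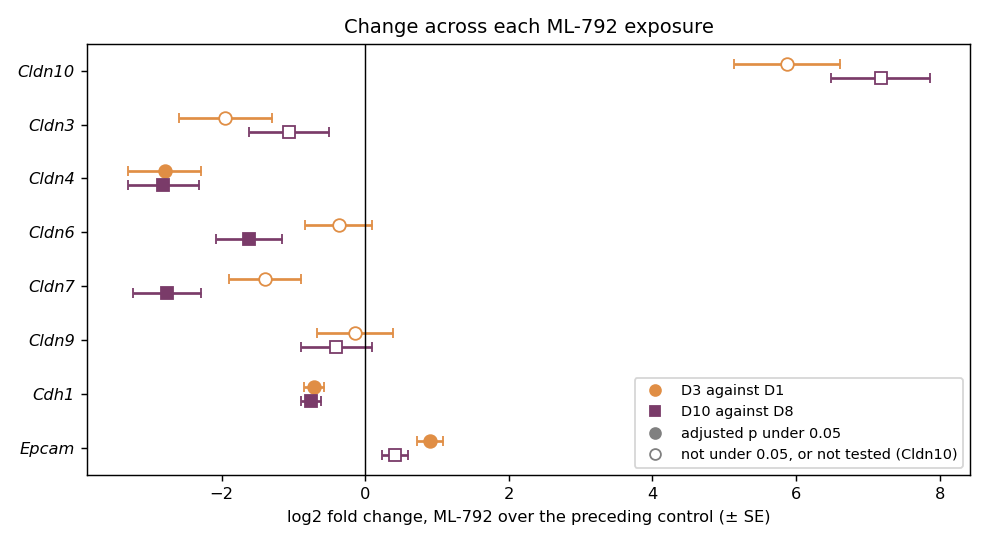
Log2 fold change with its SE for each gene, from 2 libraries per group; circles give D3 against D1, squares D10 against D8, and filled symbols an adjusted p under 0.05. Cldn4 lies near -2.8 and Cdh1 near -0.7 in both exposures, Epcam lies above 0, and Cldn10, drawn open, was not tested.

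Both rounds were then set against each other within the genes. The second response minus the first was -0.03 ± 0.70 for Cldn4 and -0.05 ± 0.20 for Cdh1. It was -1.25 ± 0.66 for Cldn6, -1.38 ± 0.68 for Cldn7 and -0.48 ± 0.26 for Epcam. By edgeR 0 of the 7 tested genes passed for this difference (adjusted p = 1 for each), and 0 were under 0.05 unadjusted. DESeq2 also called 0 of the 7, and of all genes 0% passed in edgeR. The SEs leave room for sizeable differences: for Cldn7 the difference was -0.60 to -1.96 over the settings. Of D10 against D3, 0 of the 8 genes passed by edgeR, with Cldn10 and Cldn3 under 0.05 unadjusted, beside 0% of all genes. DESeq2 called 0 of the 8, beside 73 of all genes. Without the low-count filter 4 of the 8 passed, all higher, beside 373 of the 35482 genes then tested. Of those 373 genes, 57.9% were higher. The 4 were Cldn10 (adjusted p = 0.0019), Cldn3 (0.0012), Cldn4 (1.6e-04) and Cldn6 (0.0019). Cldn3 was at 1.34 and 2.8 CPM at D10, against 0.295 and 0.801 CPM at D3, so those groups did not overlap (1.90 ± 0.65, adjusted p = 0.78).

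D8 was compared with D1 to ask whether control cells were back where they began after the first exposure. No library of cells never exposed is used at D8, so the past exposure and further culture cannot be told apart. Cldn7, Cldn6 and Cldn4 had higher means at D8, Cdh1 and Cldn10 were close to their D1 levels, and 0 of the 8 genes passed in edgeR (4 under 0.05 unadjusted, all higher). Of all genes 0.177% passed, 79.4% of them higher, or 64.4% with DESeq2. Cldn6 averaged 49.9 ± 32.7 CPM at D8 and 10.4 ± 1.87 CPM at D1 (SD, n = 2 each), a log2 fold change of 2.26 ± 0.48 (adjusted p = 0.15). Cldn7 averaged 14.4 ± 8.57 CPM at D8 and 3.22 ± 0.898 CPM at D1 (2.15 ± 0.47, adjusted p = 0.15). For both, each D8 library was above each D1 library. Cldn4 averaged 69.1 ± 29.5 CPM at D8 and 30.9 ± 11 CPM at D1 (1.16 ± 0.47, adjusted p = 0.38). Epcam averaged 136 ± 8 CPM at D8 and 80.8 ± 10.9 CPM at D1 (0.75 ± 0.18, adjusted p = 0.19). Cdh1 averaged 329 ± 0.454 CPM at D8 and 303 ± 25.2 CPM at D1, a difference of 0.12 ± 0.14.

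With the replicate block, 4 of the 8 passed between D8 and D1, beside 535 of all 19173 genes. They were Cldn4 (adjusted p = 0.017), Cldn6 (2.16, 0.011), Cldn7 (2.08, 0.0058) and Epcam (0.76, 0.012). DESeq2 called 3, namely Cldn6, Cldn7 and Epcam (adjusted p = 3.4e-05, 5.0e-04 and 0.031), beside 418 of all genes. The D8 values of the claudins rested in large part on D8 replicate 2: without it Cldn6 and Cldn7 each stood at 1.36 (adjusted p = 0.48 and 0.55), Cldn4 at 0.64 (0.85) and Cldn3 at 0.07 (0.99). Without D8 replicate 1, in contrast, Cldn6 (2.81, adjusted p = 0.022) and Cldn7 (2.65, 0.031) passed. Primitive endoderm markers moved in the same comparison. Their summed level was 593 and 1100 CPM at D8 and 130 and 186 CPM at D1. Of the 8, 5 passed, beside 0.177% of all genes. Gata6 (2.28 ± 0.26, adjusted p = 0.041) and Sox17 (3.01 ± 0.42, 0.046) were among them. The endoderm marker calls did not hold in every fit without 1 library. They were lost, as was every other call, without D1 replicate 1, D1 replicate 2, D8 replicate 2 or D10 replicate 1. At D10 their summed level was 489 and 830 CPM. Its largest part was Col4a1, with 704 ± 324 CPM at D8 and 549 ± 230 CPM at D10. At D10 against D8 the median log2 fold change of the 8 markers was -0.39, and 1 passed, as lower, beside 16.9% of all genes. The trophoblast marker sum was 40.7 and 65.6 CPM at D8 and 30.6 and 32 CPM at D1. The part of endoderm-like or trophoblast-like cells in the D8 values of the claudins was not tested.

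**Figure D3:**
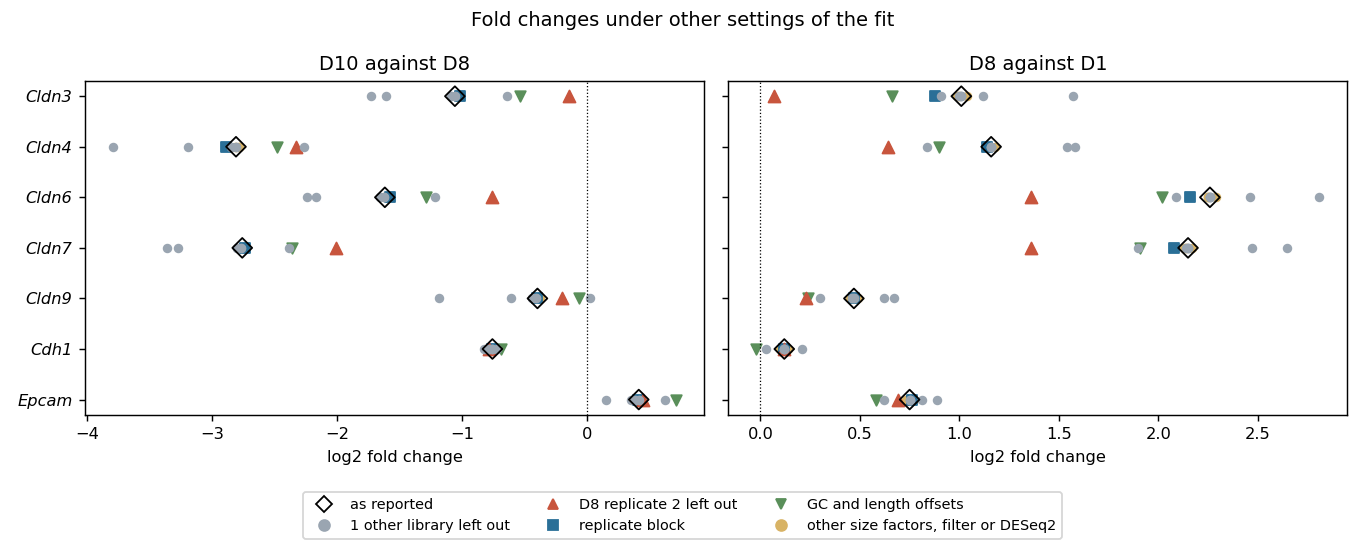
Log2 fold changes of the 7 genes other than Cldn10 under each setting of the fit, for D10 against D8 and D8 against D1. The red triangles, without D8 replicate 2, lie nearest 0 for Cldn3, Cldn6 and Cldn7 in both panels, while Cdh1 varies little.

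Read per kilobase of exon, so that genes can be compared, Cdh1 and Epcam were the most abundant of the 8 in every group. Their order differed: at D3 Epcam averaged 68.5 ± 8.29 and Cdh1 40.4 ± 6.14 CPM per kb, while at D1 Epcam averaged 36.8 ± 4.95 and Cdh1 66.2 ± 5.51 CPM per kb. At D10 Epcam averaged 82.3 ± 17.7 and Cdh1 42.4 ± 1.87 CPM per kb, while at D8 Epcam averaged 61.9 ± 3.64 and Cdh1 71.9 ± 0.0992 CPM per kb. Epcam was thus above Cdh1 in the 4 ML-792 libraries and below it in the 4 controls.

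Cldn4 came next in both control groups, at 17 ± 6.05 CPM per kb at D1 and 38.1 ± 16.3 CPM per kb at D8, where it overlapped Cldn6 (29 ± 19 CPM per kb). With ML-792, Cldn6 came next after Epcam and Cdh1, at 4.67 ± 0.734 CPM per kb at D3 and 9.34 ± 4.42 CPM per kb at D10. Cldn4 had 2.46 ± 0.562 CPM per kb at D3, below Cldn6, and 5.35 ± 3.62 CPM per kb at D10, where the pair overlapped. Cldn10 was last in both control groups. At D3 it had 1.34 ± 0.705 CPM per kb, between Cldn4 and Cldn7 and overlapping neither. At D10 it stood between Cldn4 and Cldn3, with 3.85 ± 0.804 CPM per kb, where its libraries overlapped those of Cldn4. The values of Cldn7, Cldn9 and Cldn3 overlapped their neighbours in the order at D3, as those of Cldn3 and Cldn7 did at D1, D8 and D10.

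Summed over the 27 claudin genes proper in the table, the level was 28 and 27.8 CPM per kb at D3, against 36 and 49 CPM per kb at D1. It was 31.8 and 49.4 CPM per kb at D10, against 63 and 126 CPM per kb at D8. The sum was lower with ML-792 in each round, while its make-up shifted. Cldn4 made up 7.37% and 10.3% of it at D3, against 35.4% and 43.4% at D1. At D10 Cldn4 made up 8.76% and 16% of the sum, against 42.2% and 39.5% at D8. Cldn10 held 3.02% and 6.63% at D3, against 0% and 0.0734% at D1, and 10.3% and 8.95% at D10, against 0.02% and 0.0297% at D8. Cldn12, a broadly expressed claudin gene outside the 8, held the largest share at D3, with 59.7% and 56.6%, against 36.2% and 30.6% at D1. Its own level was 68.5 ± 2.97 CPM at D3 and 59.2 ± 5.91 CPM at D1 (0.21 ± 0.15, adjusted p = 0.4).

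**Figure D4:**
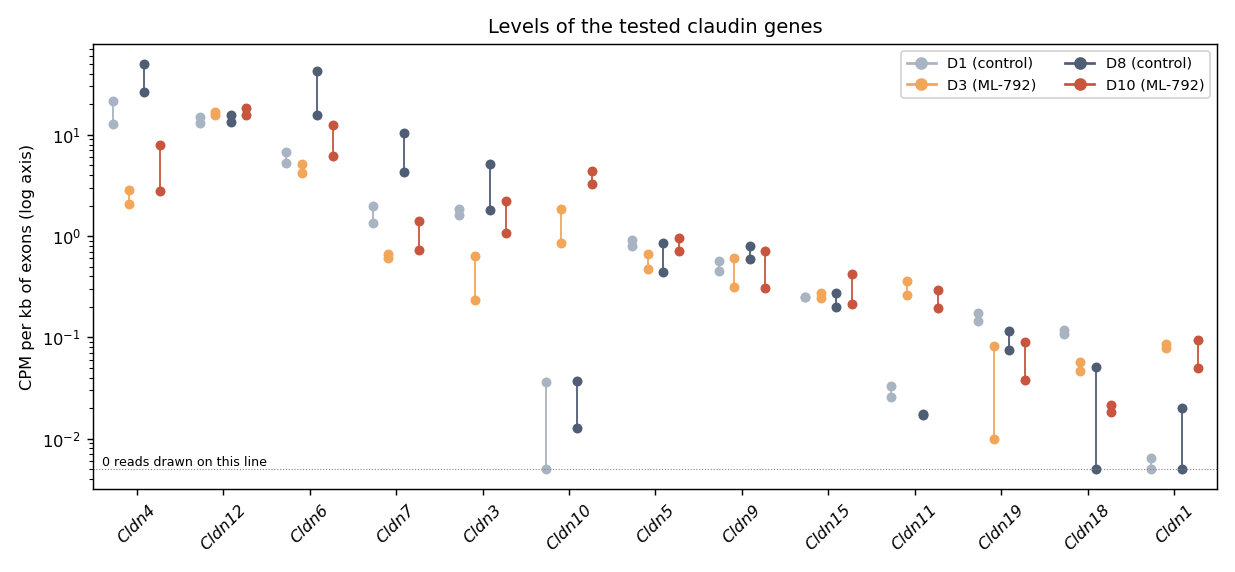
CPM per kb of exons, on a log axis, of the 13 claudin genes tested, in 2 libraries per group; a line joins the libraries of a group, and libraries with 0 reads are drawn on the dotted line. Cldn12 varies little between groups, Cldn4 is lower with ML-792 in both exposures and Cldn11 higher, Cldn7 passed as lower at D10 only and Cldn1 as higher at D3 only, Cldn3 passed in neither, and Cldn10 was not tested.

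Of 37 claudin and claudin-domain genes looked up, 29 were in the table and 14 could be tested. The 15 others had 1 to 26 reads over all libraries. Of the 8 tested genes outside the group described here, 2 passed at D3 against D1, both higher, beside 7.92% of all genes, and 1 at D10 against D8, also higher, beside 9.27% of all genes. Cldn11, a claudin of myelin and of Sertoli cells, had 16 and 14 reads at D3, against 1 and 2 reads at D1, which is 10.1 times the level per library total (95% interval 3.15 to 51.8, counting error only) and a fitted change of 3.26 ± 0.63 (adjusted p = 0.013). At D10 it had 9 and 23 reads, against 1 and 1 reads at D8, a ratio of 14.8 (3.77 to 127) and a fitted change of 3.68 ± 0.67 (adjusted p = 0.009). Cldn1, needed for the skin barrier, had 9 and 12 reads at D3, against 0 and 1 reads at D1 (21.3, interval 3.42 to 879; adjusted p = 0.044). At D10 it had 6 and 19 reads, against 0 and 3 reads at D8 (7.7, interval 2.35 to 39.8; adjusted p = 0.07). No library of either gene overlapped the other treatment, and both stayed under 1 CPM. The D3 call of Cldn11 was lost without D1 replicate 1 (adjusted p = 0.078), D1 replicate 2 (0.1) or D3 replicate 1 (0.085). That of Cldn1 was lost without any 1 of the 4 D1 and D3 libraries (0.15 to 0.18) or without D10 replicate 2 (0.051), with DESeq2 (0.082) and with GC and length offsets (0.062), and it held in 8 of 16 settings. The stricter low-count filter leaves out both genes. Cldn5, Cldn12, Cldn15, Cldn18, Cldn19 and Cldnd1 did not pass in either exposure.

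The junction genes around these 8 were read against the share of all genes called, 13.0% at D3 against D1 (7.92% higher, 5.10% lower) and 16.9% at D10 against D8 (9.27% higher, 7.65% lower). Of 32 tight junction partners, 4 rose and 1 fell at D3 against D1, near the 13.0% of all genes, with a median log2 fold change of 0. Cgnl1, for the junction plaque protein paracingulin, reached 62.7 ± 0.652 CPM at D3 and 12.5 ± 3.69 CPM at D1 (2.33 ± 0.24, adjusted p = 0.002). Tjp3, for the scaffold ZO-3 to which claudins bind, fell to 3.25 ± 0.186 CPM at D3, against 13.1 ± 2.46 CPM at D1 (-2.01 ± 0.32, adjusted p = 0.0065). Ildr2, of the tricellular junction, rose by 1.68 ± 0.3 and the junctional adhesion molecule gene Jam2 by 0.8 ± 0.22 (adjusted p = 0.0097 and 0.044). At D10 against D8, 3 of the 32 rose and 6 fell, beside 16.9% of all genes, with a median of -0.16. Crb3, for a protein that sets the apical side of epithelial cells, fell to 1.9 ± 0.275 CPM at D10, against 11.6 ± 3.3 CPM at D8 (-2.6 ± 0.43, adjusted p = 0.006). Tjp3 fell by 2.45 ± 0.31, and Cgnl1 and Ildr2 rose by 2.28 ± 0.24 and 2.11 ± 0.31. With the replicate block, 8 rose and 4 fell at the first exposure, and 11 fell at the second. Over all 19173 genes the block called 4187 and 5298, in that order. The block counts of the lists below are to be read against the same numbers. Without D8 replicate 2 or without D10 replicate 2, fewer fell at the second. Fewer of all genes were called in these fits too, and also without D10 replicate 1. The counts of the lists below in such fits are to be read against that general drop.

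Of 16 adherens junction genes, Cdh1 among them, 3 fell and 1 rose at D3 against D1, beside 13.0% of all genes, with a median of -0.03. Jup, for plakoglobin, changed by -0.91 ± 0.24 and the α-catenin gene Ctnna1 by -0.55 ± 0.14, while the P-cadherin gene Cdh3 rose by 0.69 ± 0.18 (adjusted p = 0.041, 0.036 and 0.041). At D10 against D8, 2 fell and 1 rose, near the 16.9% of all genes, with a median of -0.20. Jup had 51.6 ± 12.2 CPM at D10 and 146 ± 49.8 CPM at D8 (-1.5 ± 0.24, adjusted p = 0.0057). Cdh2, for N-cadherin, rose to 5.53 ± 1.23 CPM at D10, against 1.95 ± 0.0687 CPM at D8 (1.51 ± 0.3, adjusted p = 0.012), far under the level of Cdh1. With the block, 2 adherens junction genes rose at the first exposure and 4 fell at the second. Of 14 desmosome and keratin genes, 1 passed at the first exposure, the desmosomal cadherin gene Dsg2, which fell by 1.17 ± 0.16 (adjusted p = 0.0043), while 13.0% of all genes passed. At the second, 3 fell, near the 16.9% of all genes: Dsp, for desmoplakin, by 1.15 ± 0.29, Dsg2 by 0.86 ± 0.16 and the plakophilin gene Pkp3 by 0.72 ± 0.2 (adjusted p = 0.03, 0.0099 and 0.044). With GC and length offsets the change of Pkp3 was -0.29 (adjusted p = 0.28). The medians of this list were -0.09 and -0.73, and with the block 2 fell at the first exposure. Without D8 replicate 2, 1 of the 14 fell at the second, and without D10 replicate 1 no call was left.

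Epcam rose in a list whose other members mostly did not. Of 11 Epcam-related surface genes, Epcam rose and the tetraspanin gene Cd9 fell at D3 against D1 (-0.85 ± 0.15, adjusted p = 0.0097), beside 13.0% of all genes, with a median of -0.37. At D10 against D8, 2 rose and 4 fell, beside 16.9% of all genes, with a median of -0.55. The tetraspanin gene Tspan8 and the hyaluronan receptor gene Cd44 rose by 1.76 ± 0.48 and 1.64 ± 0.45 (adjusted p = 0.038 and 0.04), Tspan8 missing the threshold with GC and length offsets (1.44, adjusted p = 0.089). Cd9 fell to 114 ± 16.7 CPM at D10, against 273 ± 33 CPM at D8 (-1.26 ± 0.15, adjusted p = 0.002), and the membrane protease gene Prss8 changed by -1.42 ± 0.4 (0.043). With the block, 3 of the 11 fell at the first exposure, and 3 rose and 6 fell at the second. Without D8 replicate 2 or without D10 replicate 2, 2 fell at the second, and without D10 replicate 1 there was 1.

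Of 15 transcription and splicing regulators of epithelial genes, 3 fell and 1 rose at D3 against D1, beside 5.10% of all genes lower and 7.92% higher, with a median of -0.44. Elf3, an epithelial ETS factor, changed by -1.03 ± 0.28, Klf4 by -0.72 ± 0.15 and Klf5 by -0.48 ± 0.13, while Ovol1 rose by 1.74 ± 0.48 (adjusted p = 0.044, 0.02, 0.047 and 0.046). Klf4 and Klf5 are also pluripotency factors, and Klf4 is in the pluripotency marker list. At D10 against D8, 5 passed, all lower, beside 7.65% of all genes, with a median of -1.0. Elf3 had 12 ± 4.41 CPM at D10 and 35.9 ± 10.9 CPM at D8 (-1.57 ± 0.28, adjusted p = 0.0083), and Klf4 had 64.5 ± 9.21 CPM at D10 and 169 ± 24 CPM at D8 (-1.38 ± 0.16, 0.0017). Ovol2, known to hold cells epithelial, and the splicing factor gene Esrp2 changed by -1.35 ± 0.39 and -1.14 ± 0.26 (0.046 and 0.021). With GC and length offsets, Klf4 at D3 (-0.50, adjusted p = 0.079) and Ovol2 at D10 (-0.95, 0.064) missed the threshold. With the replicate block 8 fell, without D8 replicate 2 there were 3, and without D10 replicate 1 there were 2.

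The opposite list holds the Snail, Zeb and Twist genes, known as repressors of Cdh1 and of several claudins, with mesenchymal genes. Of its 14 tested members, 4 passed at D3 against D1, all higher, beside 7.92% of all genes, with a median of 0.50. At D10 against D8 3 passed, all higher, beside 9.27% of all genes, with a median of 0.64. Snai2 had 1.42 ± 0.0815 CPM at D3 and 0.29 ± 0.0725 CPM at D1 (2.24 ± 0.39, adjusted p = 0.0091), and 1.07 ± 0.028 CPM at D10 and 0.243 ± 0.0258 CPM at D8 (2.12 ± 0.4, 0.0095). Snai1 rose by 1.82 ± 0.46 and Snai3 by 1.25 ± 0.35 at D3 (0.035 and 0.047). Twist2 had 10 and 4 reads at D3 and 0 reads in both D1 libraries, at least 4.72-fold higher against a floor of 3 reads over the group (adjusted p = 0.035). Zeb2 rose to 10.2 ± 3.16 CPM at D10, against 1.22 ± 0.634 CPM at D8 (3.05 ± 0.38, adjusted p = 0.0023), and Zeb1 rose by 1.04 ± 0.26 (0.029). With the replicate block, 6 rose at the second exposure. Snai2 stayed low throughout, under 2 CPM in each library.

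**Figure D5:**
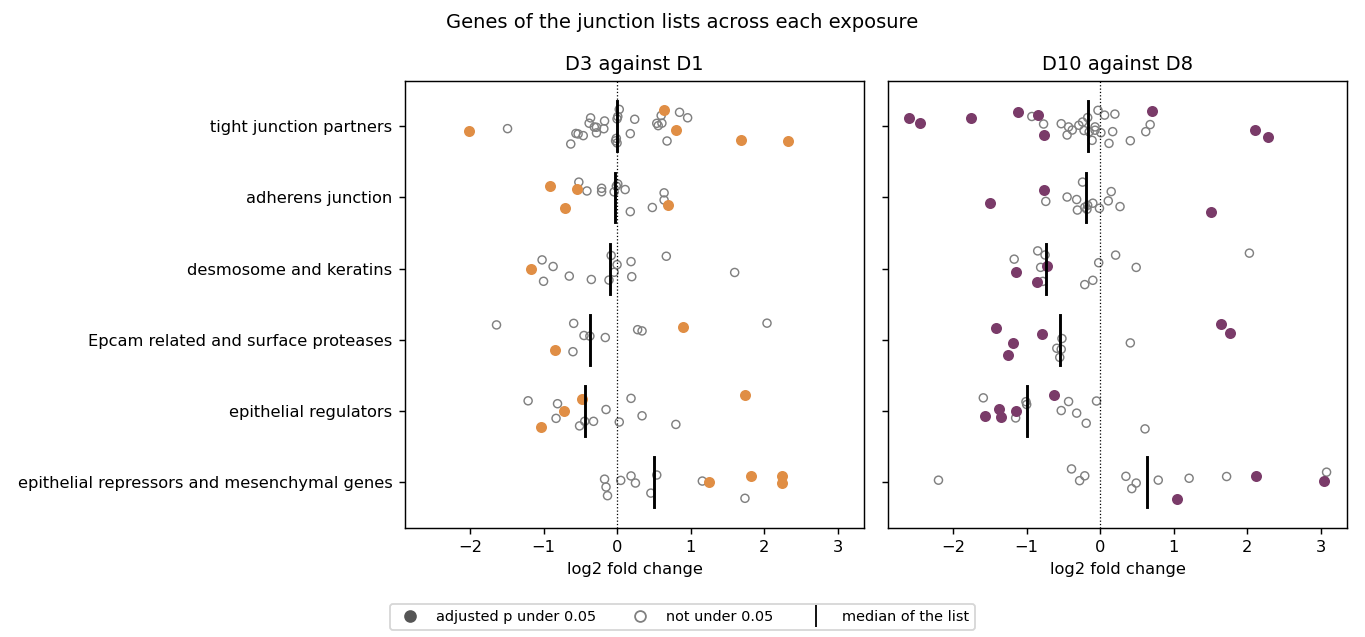
Log2 fold change of each tested gene of 6 junction lists, D3 against D1 on the left and D10 against D8 on the right; filled points passed an adjusted p of 0.05 and the black bar is the list's median. Twist2 at D3 is drawn at its lower bound; in the regulator list the bar lies at -0.44 and -1.0, and in the repressor list at 0.50 and 0.64.

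Leaving out 1 library at a time ended many of these calls. Of the 19 list genes named for D3 against D1, Cgnl1 and Dsg2 passed in each of the 8 fits without 1 library. Without D1 replicate 1, 15 of the 19 missed the threshold, 17 did so without D1 replicate 2, 16 if D3 replicate 1 was left out and 13 if D3 replicate 2 was, at adjusted p-values of 0.05 to 0.3. Without D10 replicate 1 or D10 replicate 2, 3 and 4 missed it (0.054 to 0.066). Of the 21 named for D10 against D8, 9 passed in each such fit: Crb3, Tjp3, Cgnl1, Ildr2, Jup, Cd9, Elf3, Klf4 and Zeb2. The others were lost in numbers of 9 without D8 replicate 2, 9 without D10 replicate 1, 5 without D10 replicate 2, 3 without D8 replicate 1 and 6 or 7 without a D1 or D3 library, at adjusted p-values of 0.052 to 0.24.

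Start-site windows were looked up for all 8 genes, and RefSeq on GRCm38.p6 gave 8 windows for 6 of them, without Cldn9 and Cdh1. Each was searched on both strands for CAGGTG, the E-box form known to be bound by Snail and Zeb proteins, AACCGGTT, a form of the Grainyhead-like motif, ATGCAAAT, the octamer of POU factors, and TATAAA, the TATA box. CAGGTG was in a window of 5 of the 6 genes, all but Cldn10, with 9 matches, none overlapping another motif. Counted by window, the first Cldn7 window and both Cldn10 windows lack it. Of all 32851 windows of the same length, 20.2% hold it, which is a share of windows and not of genes. The other motifs had 0 matches in the 8 windows, and are in 0.146%, 1.74% and 13.6% of all windows, in the order given. The windows of Cldn4 and Cldn7, which were lower with ML-792, and of Epcam, which was higher, are printed to show where the matches lie. They are chr5:134946885-134947184 on the minus strand for Cldn4, the second Cldn7 window at chr11:69965171-69965470 and chr17:87635729-87636028 for Epcam, both on the plus strand.
Cldn4 window: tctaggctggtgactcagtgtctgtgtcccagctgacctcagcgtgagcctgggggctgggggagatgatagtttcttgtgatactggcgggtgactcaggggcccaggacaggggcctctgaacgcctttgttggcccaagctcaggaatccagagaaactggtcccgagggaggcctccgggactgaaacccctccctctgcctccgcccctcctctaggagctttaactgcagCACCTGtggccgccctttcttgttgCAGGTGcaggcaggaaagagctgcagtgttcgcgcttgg
Cldn7 window 2: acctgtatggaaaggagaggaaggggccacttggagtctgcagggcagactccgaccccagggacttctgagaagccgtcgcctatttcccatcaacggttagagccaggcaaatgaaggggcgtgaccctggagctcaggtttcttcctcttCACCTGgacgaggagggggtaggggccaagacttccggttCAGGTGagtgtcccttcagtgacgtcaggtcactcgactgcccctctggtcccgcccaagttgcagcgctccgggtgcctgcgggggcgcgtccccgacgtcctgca
Epcam window: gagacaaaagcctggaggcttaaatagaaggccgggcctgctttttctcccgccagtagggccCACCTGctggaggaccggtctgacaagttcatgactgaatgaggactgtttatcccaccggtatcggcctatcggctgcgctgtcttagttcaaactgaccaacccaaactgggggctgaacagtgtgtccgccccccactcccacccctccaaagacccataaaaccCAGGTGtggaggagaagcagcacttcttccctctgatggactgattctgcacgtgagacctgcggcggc

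Counted from the start site, the matches lie at -14 and 11 bp in Cldn4, at -97 and -57 bp in the second Cldn7 window and at -187 and -19 bp in Epcam. Cldn3 has 1 at 31 bp and Cldn6 has 2, at -93 and 40 bp. Among these 5 genes, Cldn4 was called lower with ML-792 in both exposures, Cldn6 and Cldn7 only at D10 against D8, and Cldn3 in neither. Epcam was called higher at D3 against D1 only. Any part of the hexamer in these changes was not tested. A match is a string of letters and not a shown binding site.

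The nearest tested genes that border the 8 were looked up on each side. Dzip1 begins 31 bp beyond Cldn10 and changed by 0.38 ± 0.16 at D3 against D1 (adjusted p = 0.15) and 0.11 ± 0.15 at D10 against D8 (0.67). Abcc4, on the other side of Cldn10 at 81689 bp, changed by 0.20 ± 0.16 and 0.16 ± 0.15 (0.45 and 0.53). Elp5, 337 bp from Cldn7, changed by 0.06 ± 0.17 and 0.01 ± 0.17. Mettl27, 2482 bp from Cldn4, fell at D10 against D8 by 0.70 ± 0.19 (adjusted p = 0.039). 1520401A03Rik, 20462 bp from Cldn9, fell at D3 against D1 by 2.27 ± 0.60 (0.04).

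Across the 8 libraries, log2 CPM of the genes ran together in part, given here as a description without a test, since treatment groups and library quality are shared. Cldn4 and Cldn7 had r = 0.94, Cldn6 and Cldn7 0.92, Cldn4 and Cdh1 0.91, and Cldn3 and Cldn4 0.87. Cldn10 had r = -0.92 with Cdh1, -0.78 with Cldn4 and 0.79 with Epcam. Among 14566 genes with a mean of at least 1 CPM, those most like Cldn10 were Igf2bp1 (r = 0.996), Slc35f1 (0.992), Kif21a (0.991), Efr3b (0.990) and Ahi1 (0.988). Their levels differ widely: the RNA-binding protein gene Igf2bp1 averaged 566 ± 24.4 CPM at D3 and 476 ± 15.3 CPM at D1, and 605 ± 7.28 CPM at D10 and 487 ± 2.73 CPM at D8. Efr3b averaged 62 ± 8.2 CPM at D3 and 9.76 ± 2.45 CPM at D1, and 77.5 ± 4.23 CPM at D10 and 12.6 ± 0.861 CPM at D8. The names depend on the setting, since 2 of the 5 stayed with a prior count of 0.5 and 2 of the 5 without D8 replicate 2, Igf2bp1 among them each time.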

How the data were processed

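RNA sequencing of 8 libraries of R1 cells was analysed, 2 in each of 4 groups named by day. The authors deposited raw counts: whole reads for each Ensembl gene, not normalized. Per the submitters' processing notes, bcl2fastq 2.17.1.14, STAR 2.5.0a, featureCounts and mm10 were used. For the annotation, strand setting and multi-mapping reads, the sources used here give nothing. The molecule label reads polyA RNA, but a stranded kit for total RNA is described under extraction. No label says whether replicates are separate cultures, so the p-values rest on a spread between samples that may be only technical.

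Symbols and positions came from GENCODE M21 and matched 36901 of 36920 identifiers. Genes were kept by filterByExpr of edgeR 4.0.16, which left 19173, in R 4.3.3. A quasi-likelihood fit of the 4 groups, with TMM scaling, a biological coefficient of variation of 19.6% and 4 residual degrees of freedom, gave 2-sided p-values, adjusted by Benjamini-Hochberg over all genes tested. A gene was called, or passed, at an adjusted p under 0.05. The SE is the log2 fold change over the square root of F. Log2 CPM used a prior count of 2, and levels per kb used merged exons. Intervals and floors of 3 reads cover counting error only, since reads without molecular identifiers can be PCR copies. The fit was tested on simulated data.

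The members and the gene lists were chosen with earlier results of these data known. Named are the 8 genes, the claudins, up to 4 called genes per list and exposure with the largest change, the genes most like a member by Pearson r, and the nearest tested neighbours within 250 kb. A few genes under the last 2 of these are not reported here. The replicate numbers in the titles were taken to pair libraries, which is an assumption. Deviations from the group means correlated across genes at r = 0.101 to 0.498 in the 6 pairs of groups, with genes not independent. In every group the GC trend was also higher in replicate 2 than in replicate 1. A pairing and a trend in library quality therefore cannot be told apart by these correlations. Alternatives were RLE size factors, DESeq2 1.42.0, other filters, the replicate block, GC and length offsets, and leaving out each library. Marker lists of 7 cell types were summed in CPM.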

Additional observations from a re-analysis of the deposited data

How the results depend on the processing

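Over the 16 alternatives, all tested members but Cldn9 kept their sign in both exposures. Without 1 library, the genes called numbered 363 to 3209 at D3 against D1 (0 to 5 of the members, the genes described here), 1407 to 4326 at D10 against D8 (members 2 to 4), 0 to 339 at D8 against D1 (members 0 to 2), and 0 at D10 against D3 and for the difference of responses. DESeq2 gave 5 members at D3 against D1, 418 genes and 3 members at D8 against D1, 73 genes at D10 against D3 and 3 for the difference. Without the low-count filter these were 3847 genes and 5 members, 973 and 4, 373 and 4, and 66. The replicate block assumes that equal replicate numbers mark paired libraries. It gave 4187 genes and 5 members at D3 against D1, and 5298 genes at D10 against D8. At D8 against D1 it gave 535 genes and 4 members, and at D10 against D3 it gave 28 genes. It ended no call of a member.

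The GC correction on merged exons was not run, as no genome was used here. Offsets from transcript GC and length, chosen after seeing the data, gave 81 genes at D8 against D1. With the block they gave 5167 genes and 5 members, 5573 genes, 504 and 4, and 67, for the same comparisons. Without D8 replicate 2 and with the block, also added later, the counts were 4708 genes and 5 members at D3 against D1, 70 and 1 at D8 against D1, and 36 at D10 against D3. The genes most like Cldn10 shared 2 of 5 with a prior count of 0.5 and 2 of 5 without D8 replicate 2. The untested difference of Cldn10 responses was 1.31, with -2.48 to 2.20 without 1 library; it reversed to -2.48 without D1 replicate 2, where D1 is left with 0 reads. A lone library was assumed to vary like the other groups. Depth limits Cldn10 in control cells, Cldn1, Cldn11 and Twist2, each with 0 to 3 reads in every control library, and the 15 claudins left untested.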

Other observations

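The genes whose log2 CPM ran closest to the other members over the 8 libraries were, for Cldn4, Ndufaf7, Slc22a18 and Hopx (r = 0.996, 0.995 and 0.995). Hopx, a homeodomain-only protein gene, averaged 0.489 ± 0.0963 CPM at D3 and 2.85 ± 0.927 CPM at D1, and 1.2 ± 0.661 CPM at D10 and 5.75 ± 1.29 CPM at D8 (SD, n = 2 each). For Cldn7 they included Klc3 and Flad1 (0.996 and 0.990), for Cldn6 they were Nudt14, Efna3 and Ephb3 (0.992, 0.990 and 0.989), and for Cldn3 Vta1, Amz2 and Rhoc (0.982, 0.979 and 0.978). Cdh1 was closest to Arrdc2, Scd1 and Fuom (0.994, 0.992 and 0.988), Epcam to Gnptg, Cobll1 and Slc25a24 (0.986, 0.984 and 0.975), and those close to Cldn9 included Tmem121 and Nt5c3b (0.933 and 0.932). The libraries share treatment groups and depth, so these values describe likeness and carry no p.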
